A study of Macaca mulatta with 27 samples.

Results

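The genes described here are the G1-S cyclins and cyclin-dependent kinases (CDKs) of rhesus macaque pluripotent stem cells, with the transcription factor E2F1. They were chosen by symbol from a list of 10 genes, CCND1, CCND2, CCND3, CCNE1, CCNE2, CDK2, CDK4, CDK6, CDC25A, and E2F1, of which 9 had a row among the 17967 genes counted. CDC25A was not analysed here. The study asked why primate cells stop dividing after transfer into host embryos and looked at regulators of the G1 phase for that reason. That assay measured protein, by western blot, in mouse and human cells before and after dissociation. In rhesus cells the study measured DNA replication and cell-cycle phase. The libraries described here are of cells in culture, before any transfer.

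Transcripts were counted by RNA-seq in 27 libraries, 6 of primed cells and 3 of each of 7 protocols that the labels call naive, namely TL2i, TL-CDK8/19i (TL-CDK8i in the labels), 4i/L/b, LCDM (EPS), t2iLGöY, NHSM-v, and E-NHSM. All groups came from LyonES-tGFP-(S3), a clonal derivative of 1 rhesus embryonic stem cell line that carries tau-GFP under the ubiquitous CAG promoter and STAT3-ERT2, a STAT3 that becomes active when tamoxifen is given. Tamoxifen was given in TL2i, with LIF and inhibitors of MEK and GSK3β, and in TL-CDK8/19i, in which the CDK8/19 inhibitor CNIO-47799 took the place of those inhibitors, and STAT3-ERT2 was inactive in the other groups. Each remaining protocol used the published medium of its name, whose agents the labels do not list. Primed cells were passaged mechanically as clumps, whereas all reprogrammed cells were passaged enzymatically as single cells, so protocol and passaging cannot be told apart in any comparison with primed cells. As the cells derive from 1 clone, and nothing in the labels says that libraries of a group came from separate cultures, the p-values measure the spread between these libraries only.

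In the G1 phase, mitogen signals raise D-type cyclins (CCND1, CCND2, and CCND3), which bind CDK4 and CDK6 and begin to phosphorylate the retinoblastoma protein. E2F factors such as E2F1 are then released and activate E-type cyclins (CCNE1 and CCNE2), which bind CDK2 and start DNA replication. Mouse embryonic stem cells are known for a short G1 phase with high cyclin E and little D-type cyclin.

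Total counts ranged from 7111886 to 20760914 per library, with a median of 12201171. Levels are given as counts per 1000000 counts (CPM) after TMM scaling, and CPM of different genes cannot be compared because the counts are not corrected for length. Fold changes and adjusted p-values against primed cells are from edgeR's quasi-likelihood test with Benjamini-Hochberg adjustment over all genes tested, and a gene is said to rise or fall when its adjusted p was under 0.05. The 7 comparisons share the same 6 primed libraries and are therefore not independent of each other.

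The state of the cells was checked on marker genes. POU5F1, the central pluripotency factor, was at 1100 to 1300 CPM in primed cells, at 1340 to 1400 CPM in E-NHSM, and at 418 to 606 CPM in TL-CDK8/19i. It was at 7.69 CPM or below in every library of LCDM (EPS), t2iLGöY, TL2i, NHSM-v, and 4i/L/b, and NANOG, another pluripotency factor, was at 0.539 CPM or below in those 15 libraries. DPPA4 and TDGF1, also marker genes of pluripotent cells, averaged at most 7.29 and 0.991 CPM there, against 455 and 200 in primed cells. Other markers were kept in part. SOX2 was at 323 to 338 CPM in LCDM (EPS), against 214 to 337 in primed cells, and at 72.3 to 116 CPM in the other 4 of these protocols. LIN28A and PODXL averaged 271 and 894 CPM in TL2i, against 573 and 1890 in primed cells, and at most 42.5 and 216 CPM in the other 4. The cells of these 5 protocols thus carried the naive label with POU5F1 and NANOG at or near 0 and with part of the other markers still present. Of 6 neural progenitor markers, 6 rose in LCDM (EPS), and 5 rose and 1 fell in both t2iLGöY and NHSM-v. TL2i had 3 rises and 4i/L/b had 4. Of all genes, from 25.6% to 28.2% rose there. The sum of these 6 was 4330 to 4410 CPM in LCDM (EPS), against 2230 to 2570 CPM in primed cells. It was 2650 to 2960 CPM for t2iLGöY, 2110 to 2120 CPM for NHSM-v, and within or overlapping the primed range otherwise. The part of neural cells in the SOX2 level was not tested. In bulk libraries, fewer cells of a type and less RNA per cell cannot be told apart.

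The primed columns carry the letters J and K, with 3 libraries each, which no label explains. Against J, the K libraries had higher CCND1 (233 against 152 CPM, log2 difference 0.61 ± 0.10 (SE), adjusted p = 0.0032) and higher CCND2 (542 against 403 CPM, 0.42 ± 0.08, adjusted p = 0.0056). These were 2 of 9 members called, where 3.73% of 12559 genes were called. For that reason calls of members that change with the letter are given against both.

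Against primed cells, the members followed no common direction. In NHSM-v, 4 of 9 members rose and 2 fell, where 28% of 13268 genes rose and 30.6% fell, 58.6% in all. In 4i/L/b, 5 rose and 1 fell, where 26.6% of 13558 genes rose and 29% fell, 55.6% in all. In TL2i, 3 rose and 1 fell, where 25.6% of 13808 genes rose and 25.2% fell, 50.7% in all.

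The other protocols had rises and falls as well. In t2iLGöY, 4 members rose and 2 fell, where 27.1% of 13662 genes rose and 27.2% fell, 54.3% in all. In LCDM (EPS), 5 rose and 2 fell, where 28.2% of 13625 genes rose and 28.9% fell, 57.1% in all. In TL-CDK8/19i, 4 rose and 2 fell, where 22.3% of 13359 genes rose and 23.8% fell, 46.1% in all.

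E-NHSM was the protocol in which 5 members fell, where 15.1% of 13304 genes fell, 11.1% rose, and 26.2% were called in all. The number of members that rose there was 0 in edgeR, in DESeq2, and at an unadjusted p under 0.05. Outside E-NHSM the share of members called was from 44.4% to 77.8%. Genes with no overlap between the libraries of a protocol and the primed libraries were common as well. They numbered 3 of 9 members in E-NHSM (29.4% of all genes tested), 6 in NHSM-v (55.6%), 5 in 4i/L/b (55.7%), 4 in TL2i (50.8%), 5 in t2iLGöY (51.9%), 7 in LCDM (EPS) (55.4%), and 5 in TL-CDK8/19i (46.1%).

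**Figure D1:**
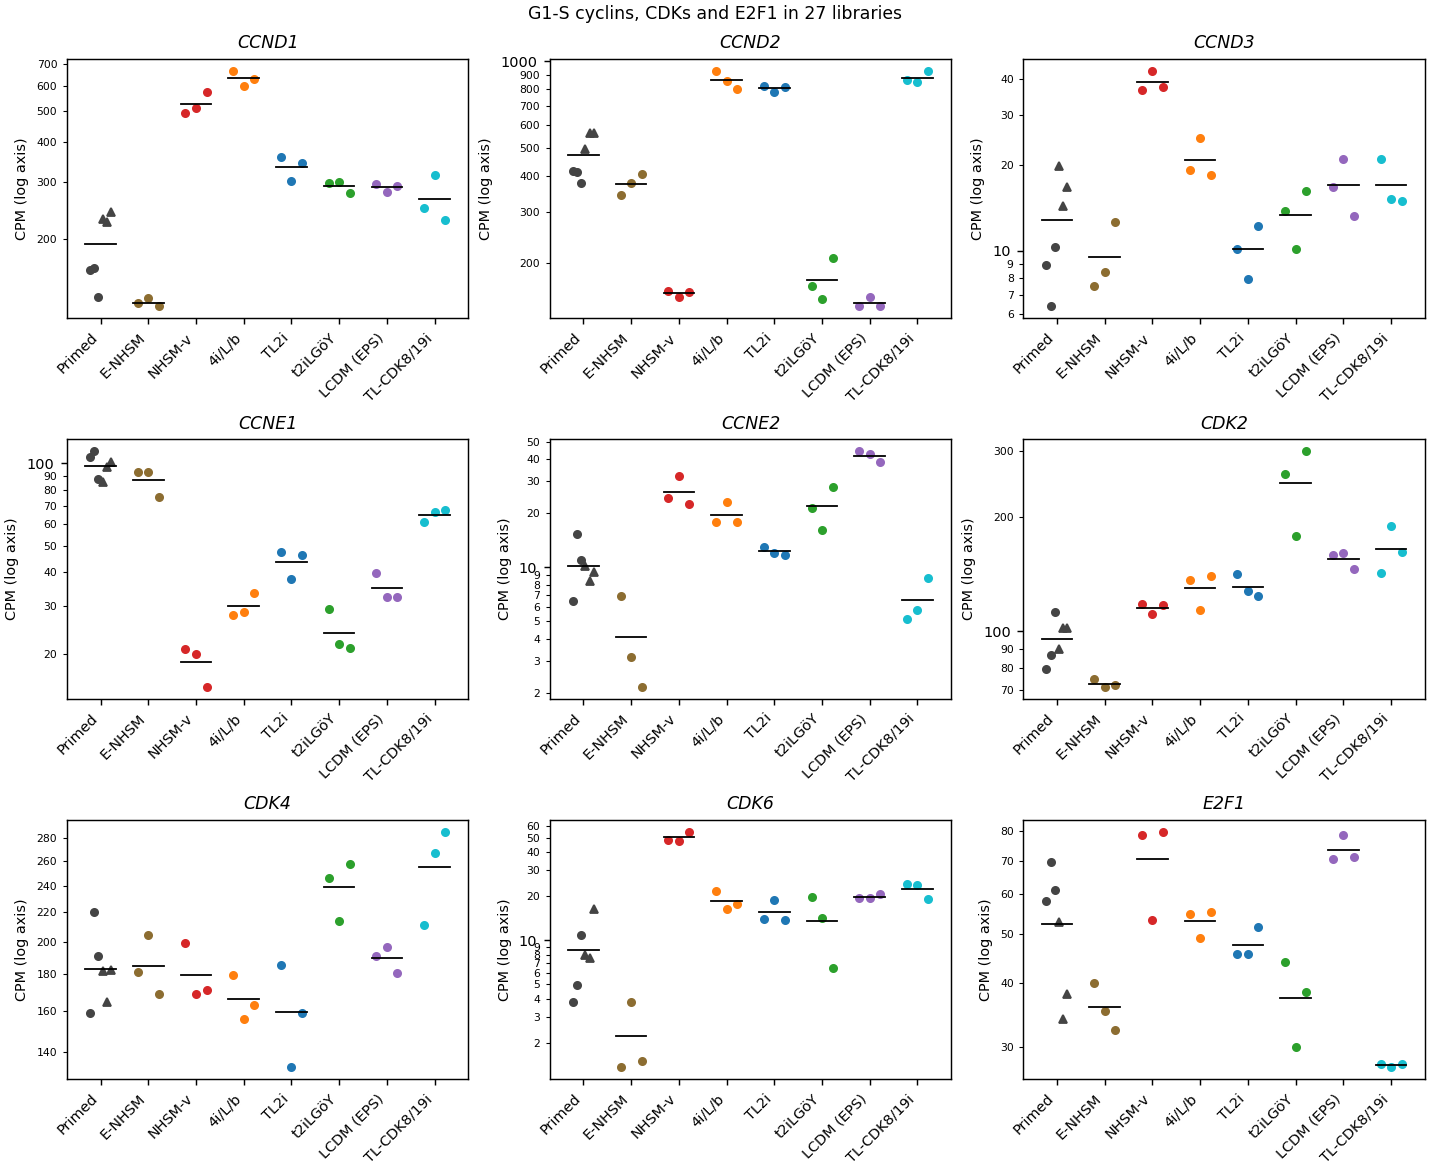
Level of each of the 9 members in every library, in CPM on a log axis, with the mean of each group as a bar; in primed cells circles are the columns lettered J and triangles those lettered K. CCNE1 lay below all primed libraries in every protocol but E-NHSM, and CCND2 lay above all primed libraries in 3 protocols and below them in 3, and overlapped them in E-NHSM.

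CCND1 encodes cyclin D1, the D-type cyclin induced by mitogen and Wnt signals. In primed cells its level ran from 132 to 242 CPM with a median of 194. The E-NHSM libraries were at 126, 131, and 123 CPM, all below the primed range, and CCND1 fell 1.52-fold (log2 fold change -0.61 ± 0.16 (SE), adjusted p = 0.0081). This call rested on the K libraries. Against K alone the log2 fold change was -0.88 ± 0.08 (adjusted p = 6.1e-08), and against J alone it was -0.26 ± 0.11 (adjusted p = 0.085).

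In 5 other protocols CCND1 rose, with all libraries above the primed range. The 4i/L/b libraries were at 666, 597, and 631 CPM, a 3.19-fold rise (log2 fold change 1.67 ± 0.16, adjusted p = 9.1e-07). NHSM-v was at 494, 511, and 572 CPM, a 2.69-fold rise (1.43 ± 0.16, adjusted p = 1.5e-06). TL2i, t2iLGöY, and LCDM (EPS) rose less, by 1.74-fold (336 ± 29.5 CPM, SD, n = 3), 1.55-fold (292 ± 12.1 CPM), and 1.51-fold (290 ± 8.94 CPM). In TL-CDK8/19i the libraries were at 250, 316, and 230 CPM, overlapped the primed range, and did not pass the test (0.41 ± 0.17, adjusted p = 0.064). It passed under 8 of 17 alternatives, among them without TL-CDK8/19i library 3 (0.53, adjusted p = 0.049) and without primed K1 (0.49) or K3 (0.51). Against J alone it was 0.77 ± 0.13 (adjusted p = 0.0011), and against K alone 0.14 ± 0.11 (adjusted p = 0.32).

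Markers of fibroblasts and mesenchyme were also higher where CCND1 was highest. The sum of 7 such genes was 11600 to 15100 CPM in 4i/L/b and 7830 to 8370 CPM in NHSM-v, against 1110 to 2380 CPM in primed cells and 393 to 427 CPM in E-NHSM. It was likewise high in TL-CDK8/19i (8680 to 11200 CPM), whose CCND1 did not pass the test, and low in LCDM (EPS) (772 to 1000 CPM), whose CCND1 rose. Of the defining genes, LUM and DCN held at most 3 counts in every library of primed cells, E-NHSM, and t2iLGöY. The part of these cells in the CCND1 result was not tested.

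CCND2 encodes cyclin D2, and it was called in all 7 protocols. Its primed libraries ran from 379 to 565 CPM with a median of 456. It rose in TL-CDK8/19i, 4i/L/b, and TL2i and fell in LCDM (EPS), NHSM-v, and t2iLGöY, and in each of these 6 protocols no library overlapped the primed range.

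The TL-CDK8/19i libraries were at 862, 846, and 925 CPM, a 1.79-fold rise (log2 fold change 0.84 ± 0.12, adjusted p = 3.6e-05). The 4i/L/b libraries were at 927, 854, and 803 CPM (0.82 ± 0.12, adjusted p = 5.1e-05), and those of TL2i at 820, 786, and 816 CPM (0.77 ± 0.12, adjusted p = 9.5e-05). These 3 protocols did not differ from each other beyond their spread (adjusted p of 0.94, 0.46, and 0.41). On the other side, LCDM (EPS) was at 142, 153, and 142 CPM, a 3.24-fold fall (-1.70 ± 0.13, adjusted p = 8.3e-08). NHSM-v was at 161, 153, and 159 CPM (-1.61 ± 0.13, adjusted p = 5.5e-08), and t2iLGöY at 167, 150, and 208 CPM (-1.41 ± 0.14, adjusted p = 1e-06). Of these 3 low protocols, t2iLGöY exceeded LCDM (EPS) by 0.27 on the log2 scale (adjusted p = 0.016), and NHSM-v, between them, did not differ from either beyond the spread (adjusted p of 0.28 and 0.14). All 3 lay below E-NHSM, the nearest being t2iLGöY (log2 difference 1.11, adjusted p = 1.7e-11).

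In E-NHSM, CCND2 was at 345, 380, and 406 CPM and overlapped the primed range. Its fall was small (-0.33 ± 0.11, adjusted p = 0.04) and was lost when any E-NHSM library, or primed K1, K2, or K3, was left out, with values from -0.38 to -0.27. Against J alone it was -0.10 ± 0.08 (adjusted p = 0.38), and against K alone -0.52 ± 0.07 (adjusted p = 1.1e-05).

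CCND3, which encodes cyclin D3, was called in NHSM-v only. Primed libraries ran from 6.37 to 19.8 CPM with a median of 12.3, and the NHSM-v libraries were at 36.6, 42.7, and 37.6 CPM, all above them. The rise was 2.99-fold (1.58 ± 0.29, adjusted p = 0.00024), and NHSM-v also exceeded 4i/L/b, the next in order, by 0.92 on the log2 scale (adjusted p = 0.0025). In the other protocols the log2 fold change lay between -0.43 and 0.66. In 4i/L/b it passed the test without primed K1 (0.86, adjusted p = 0.027). Against J alone CCND3 also rose in 4i/L/b (1.27 ± 0.27, adjusted p = 0.0031), LCDM (EPS) (1.02 ± 0.31, adjusted p = 0.017), and TL-CDK8/19i (0.97 ± 0.30, adjusted p = 0.024), where it was 0.27, 0.00, and -0.04 against K alone (adjusted p of 0.26, 0.99, and 0.88). Against K alone it fell in E-NHSM (-0.84 ± 0.28, adjusted p = 0.025) and TL2i (-0.76 ± 0.24, adjusted p = 0.016), where it was 0.15 and 0.25 against J alone (adjusted p of 0.81 and 0.55).

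Ratios between members of a family were read within each library. Such a ratio depends on the lengths of both genes, so that only its differences between groups are given, and no test was run on it. The log2 ratio of CCND2 to CCND1 counts was 1.32 ± 0.15 (SD, n = 6) in primed cells, 1.57 ± 0.14 in E-NHSM (n = 3 here and below), 1.74 ± 0.30 in TL-CDK8/19i, and 1.27 ± 0.10 in TL2i. It was 0.45 ± 0.09 in 4i/L/b, where CCND1 rose more than CCND2. It was lowest in t2iLGöY (-0.75 ± 0.30), LCDM (EPS) (-0.99 ± 0.11), and NHSM-v (-1.73 ± 0.11), in which CCND1 rose and CCND2 fell.

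**Figure D2:**
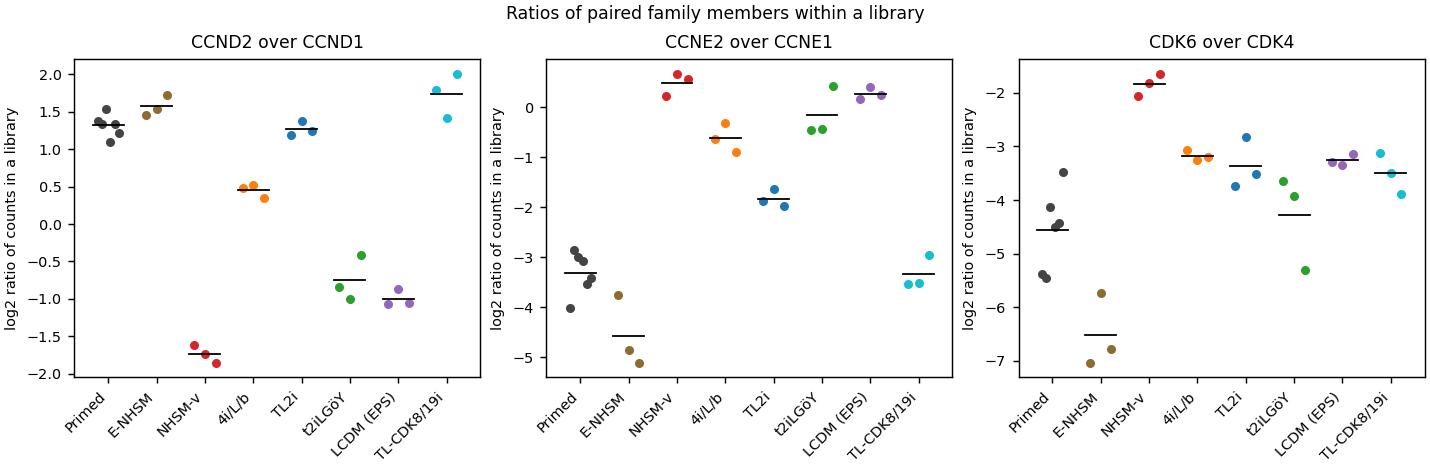
Log2 ratio of counts within each library for CCND2 over CCND1, CCNE2 over CCNE1, and CDK6 over CDK4, with 1 point per library and the group mean as a bar. The CCND2 to CCND1 ratio averaged 1.32 in primed cells and from -1.73 to -0.75 in NHSM-v, t2iLGöY, and LCDM (EPS), and the CCNE2 to CCNE1 ratio averaged -3.31 in primed cells and was highest in NHSM-v (0.48) and LCDM (EPS) (0.27).

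CCNE1, which encodes cyclin E1, the partner of CDK2 at the start of replication, fell in 6 of 7 protocols. Primed libraries ran from 85.6 to 111 CPM with a median of 99.1. In NHSM-v it was at 20.9, 20.1, and 15.1 CPM, a 5.34-fold fall (log2 fold change -2.42 ± 0.15, adjusted p = 4.4e-09). In t2iLGöY it was at 29.1, 21.8, and 20.9 CPM, a 4.01-fold fall (-2.0 ± 0.15, adjusted p = 4.4e-08). All libraries of both protocols lay far below the primed range.

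The 4i/L/b libraries were at 27.8, 28.6, and 33.4 CPM (-1.75 ± 0.13, adjusted p = 6.3e-08). Those of LCDM (EPS) were at 39.6, 32.3, and 32.4 CPM (-1.49 ± 0.13, adjusted p = 2.3e-07), and those of TL2i at 47.2, 37.5, and 46.0 CPM (-1.17 ± 0.12, adjusted p = 3.4e-06). The fall was smaller in TL-CDK8/19i, with libraries at 60.8, 66.5, and 67.6 CPM, all below the primed range (-0.64 ± 0.12, adjusted p = 0.00038). E-NHSM, at 93.3, 93.1, and 75.2 CPM, overlapped the primed libraries and did not pass the test (-0.17 ± 0.12, adjusted p = 0.32). The 6 falls kept their call against J alone and K alone and with each library left out.

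By level, E-NHSM exceeded TL-CDK8/19i (adjusted p = 0.0089), TL-CDK8/19i exceeded TL2i (adjusted p = 0.0026), and TL2i exceeded LCDM (EPS) (adjusted p = 0.046). From LCDM (EPS) down through 4i/L/b and t2iLGöY to NHSM-v, each step between neighbours missed the threshold (adjusted p of 0.32, 0.076, and 0.077). Across more than 1 step the levels did differ, as NHSM-v was below LCDM (EPS) (-0.86, adjusted p = 2.9e-05) and 4i/L/b (-0.67, adjusted p = 0.0013), and t2iLGöY was below LCDM (EPS) (-0.52, adjusted p = 0.0065). The sum of 7 pluripotency markers had nearly the same order. It was 4340 to 5130 CPM in primed cells, 5590 to 5680 in E-NHSM, 2420 to 3110 in TL-CDK8/19i, 1130 to 1400 in TL2i, 553 to 562 in LCDM (EPS), 241 to 259 in 4i/L/b, 227 to 237 in NHSM-v, and 197 to 214 in t2iLGöY. NANOG held at most 3 counts in every library of the last 4. The part of pluripotent cells in the CCNE1 result was not tested.

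**Figure D3:**
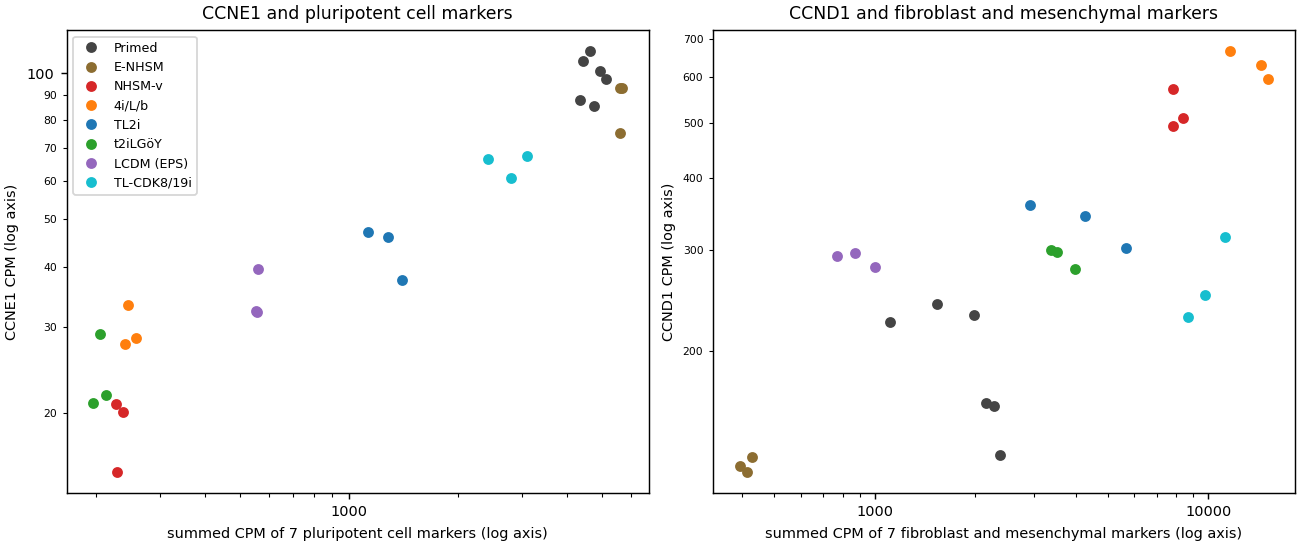
CPM of CCNE1 against the summed CPM of 7 pluripotency markers (left) and of CCND1 against that of 7 fibroblast and mesenchymal markers (right), both on log axes, with 1 point per library. CCNE1 was low in the groups with low marker sums, whereas CCND1 in LCDM (EPS) and TL-CDK8/19i was of like level at marker sums of 772 to 1000 and 8680 to 11200 CPM.

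CCNE2 encodes cyclin E2, which also binds CDK2, and it rose in 4 protocols. Its primed libraries ran from 6.48 to 15.2 CPM with a median of 9.79. In LCDM (EPS) it was at 44.2, 42.6, and 38.3 CPM, a 4.14-fold rise (2.05 ± 0.23, adjusted p = 3.7e-06), with all libraries above the primed range. It also rose in NHSM-v, at 24.2, 32, and 22.4 CPM (1.35 ± 0.27, adjusted p = 0.00049), and in t2iLGöY, at 21.4, 16.1, and 28.1 CPM (1.14 ± 0.29, adjusted p = 0.0042), again without overlap.

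The rise in 4i/L/b, with libraries at 17.9, 23.1, and 17.9 CPM, was weaker (0.92 ± 0.27, adjusted p = 0.01) and did not pass without library 2 (0.78, adjusted p = 0.071) or against J alone (0.83, adjusted p = 0.051), and was 1.05 against K alone (adjusted p = 0.0011). TL2i (12.2 ± 0.65 CPM) and TL-CDK8/19i (6.55 ± 1.89 CPM) did not pass the test (0.27 ± 0.29 and -0.67 ± 0.35). In E-NHSM the libraries spread from 2.15 to 6.93 CPM and overlapped the primed range. The fall there (-1.31 ± 0.43, adjusted p = 0.03) was lost without E-NHSM library 2 (-1.15) or 3 (-1.0) and without primed J2 (-1.15), and against J alone (-1.41, adjusted p = 0.061), and was -1.18 against K alone (adjusted p = 0.048).

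The log2 ratio of CCNE2 to CCNE1 counts was -3.31 ± 0.43 in primed cells and -3.33 ± 0.33 in TL-CDK8/19i. It was -1.83 ± 0.17 in TL2i, -0.61 ± 0.30 in 4i/L/b, -0.15 ± 0.50 in t2iLGöY, 0.27 ± 0.12 in LCDM (EPS), and 0.48 ± 0.24 in NHSM-v. In E-NHSM it was -4.57 ± 0.73. CCNE2 thus rose in 4 of the 6 protocols in which CCNE1 fell.

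CDK2, the kinase partner of cyclins E and A, rose in 5 protocols and fell in E-NHSM. Primed libraries ran from 79.4 to 113 CPM with a median of 95.8. The t2iLGöY libraries were at 261, 179, and 299 CPM, a 2.63-fold rise (1.40 ± 0.14, adjusted p = 1.1e-06), and t2iLGöY exceeded TL-CDK8/19i, the next in order, by 0.60 on the log2 scale (adjusted p = 0.00013). These libraries were far apart from each other, yet all lay above every primed library.

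CDK2 was at 143, 189, and 162 CPM in TL-CDK8/19i (0.74 ± 0.12, adjusted p = 0.00021) and at 160, 161, and 146 CPM in LCDM (EPS) (0.71 ± 0.11, adjusted p = 9.7e-05). It rose less in TL2i (131 ± 9.77 CPM, 0.46 ± 0.11, adjusted p = 0.0044) and in 4i/L/b (130 ± 14.4 CPM, 0.41 ± 0.12, adjusted p = 0.01), where the call was lost without library 3 (0.36). Each step between neighbours from TL-CDK8/19i down to primed cells missed the threshold, whereas across more than 1 step NHSM-v was below TL-CDK8/19i (-0.46, adjusted p = 0.0026) and LCDM (EPS) (-0.39, adjusted p = 0.0095), and 4i/L/b and TL2i were below TL-CDK8/19i (adjusted p of 0.045 and 0.048). NHSM-v (116 ± 3.86 CPM) did not pass (0.25 ± 0.12, adjusted p = 0.079), and passed under 7 of 17 alternatives, among them with primed J3, K2, or K3 left out (0.31 to 0.32). The E-NHSM libraries were at 75, 71.4, and 72 CPM, below all primed libraries, and their fall (-0.39 ± 0.12, adjusted p = 0.024) was lost when any E-NHSM library was left out (-0.41 to -0.38) and against J alone (-0.35, adjusted p = 0.08), and was -0.43 against K alone (adjusted p = 0.0041).

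CDK4, a kinase partner of the D-type cyclins, had the narrowest range of log2 fold changes among the members. Its primed libraries ran from 159 to 220 CPM with a median of 182, and over the 7 protocols its log2 fold change lay between -0.21 and 0.43. It rose in TL-CDK8/19i (211, 267, and 286 CPM, 0.43 ± 0.12, adjusted p = 0.0081) and in t2iLGöY (246, 214, and 257 CPM, 0.41 ± 0.11, adjusted p = 0.0046). In both, 1 library fell within the primed range.

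CDK6, the other kinase partner of the D-type cyclins, had the widest range of log2 fold changes. Its primed libraries were themselves far apart, from 3.80 to 16.3 CPM with a median of 7.78. The NHSM-v libraries were at 48.0, 47.7, and 54.9 CPM, a 5.74-fold rise (2.52 ± 0.33, adjusted p = 1e-05), and NHSM-v exceeded TL-CDK8/19i, the next in order, by 1.22 on the log2 scale (adjusted p = 0.00058).

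CDK6 also rose in TL-CDK8/19i (24.2, 23.7, and 19.2 CPM, 1.33 ± 0.36, adjusted p = 0.0079) and LCDM (EPS) (19.5, 19.5, and 20.5 CPM, 1.21 ± 0.37, adjusted p = 0.013), without overlap. In 4i/L/b it was at 21.5, 16.3, and 17.7 CPM, with 1 library under the primed maximum (1.06 ± 0.38, adjusted p = 0.029), and the call was lost when any 4i/L/b library was left out (0.97, 1.15, and 1.10 without library 1, 2, and 3). TL2i (0.85 ± 0.39, adjusted p = 0.081) passed without primed K3 (1.14, adjusted p = 0.016) and against J alone (1.27 ± 0.40, adjusted p = 0.024), and was 0.54 ± 0.31 against K alone (adjusted p = 0.15). In t2iLGöY the libraries spread from 6.50 to 19.7 CPM and did not pass (0.67 ± 0.46).

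The E-NHSM libraries were at 1.37, 3.78, and 1.51 CPM, below all primed libraries. The fall of CDK6 (-1.96 ± 0.55, adjusted p = 0.013) was lost without E-NHSM library 1 (-1.70) or 3 (-1.74) and against J alone (-1.56 ± 0.73, adjusted p = 0.13), and was -2.26 ± 0.51 against K alone (adjusted p = 0.0017). The log2 ratio of CDK6 to CDK4 counts was -4.56 ± 0.75 in primed cells, -6.52 ± 0.68 in E-NHSM, and -1.84 ± 0.21 in NHSM-v, and it lay between -4.29 and -3.17 in the other 5 protocols.

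E2F1, the transcription factor released from the retinoblastoma protein at the end of G1, was called in 2 protocols with opposite signs. In primed cells E2F1 ran from 34.0 to 69.5 CPM with a median of 55.6. The TL-CDK8/19i libraries were at 27.8, 27.3, and 27.8 CPM, all below the primed range, a 1.96-fold fall (-0.97 ± 0.22, adjusted p = 0.0021). The LCDM (EPS) libraries were at 70.3, 78.5, and 71.2 CPM, just above it (0.49 ± 0.20, adjusted p = 0.044). That rise was lost when any LCDM (EPS) library or primed K1, K2, or K3 was left out (0.39 to 0.54), and against J alone (0.24 ± 0.12, adjusted p = 0.13), and was 0.82 ± 0.15 against K alone (adjusted p = 0.00054).

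Primed columns lettered J averaged 63.0 CPM of E2F1 and those lettered K 41.6 CPM (-0.61 ± 0.19, adjusted p = 0.083), and the result in several protocols depended on the letter. Against J alone E2F1 fell in E-NHSM (-0.81 ± 0.16, adjusted p = 0.0014), t2iLGöY (-0.73 ± 0.19, adjusted p = 0.0068), and TL2i (-0.40 ± 0.13, adjusted p = 0.026), where it was -0.21, -0.14, and 0.19 against K alone (adjusted p of 0.39, 0.6, and 0.34). Against K alone it rose in NHSM-v (0.74 ± 0.19, adjusted p = 0.0025), where it was 0.18 against J alone (adjusted p = 0.4). With all 6 primed libraries these were -0.54, -0.45, -0.13, and 0.41, with adjusted p between 0.059 and 0.61. Single primed libraries also changed the call: without K2 or K3 the E-NHSM and t2iLGöY falls passed (-0.64 to -0.57), and without J2 the NHSM-v rise passed (0.56).

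**Figure D4:**
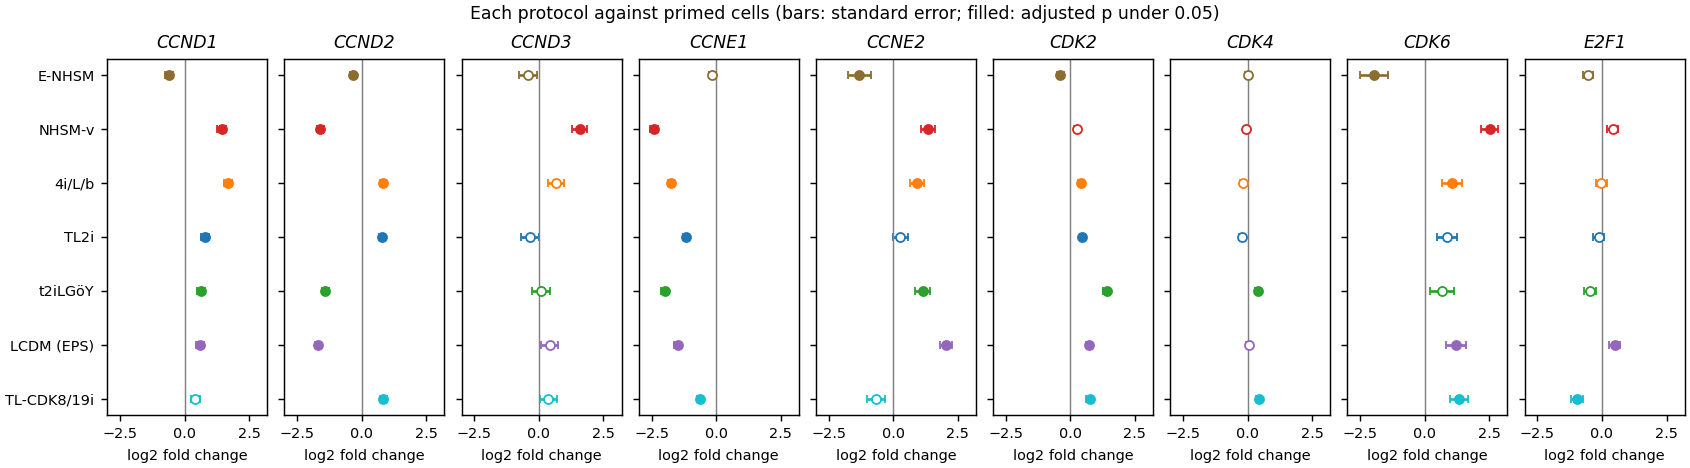
Log2 fold change of each member in each protocol against primed cells, with the standard error as a bar; filled points had an adjusted p under 0.05. CCNE1 is to the left of 0 in all 7 protocols and filled in 6, and CDK4 lies within -0.21 and 0.43.

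In E-NHSM all 5 calls were falls, and most were sensitive to the libraries used. With upper-quartile scaling 3 of 9 members were called, without E-NHSM library 1 or 2 there were 2, and without library 3 there was 1. All genes called were 3592 with upper-quartile scaling, and 2488, 2518, and 2482 without E-NHSM library 1, 2, and 3. Fewer genes were thus called in general with an E-NHSM library left out. Against the K libraries 6 members were called, CCND1, CCND2, CCND3, CCNE2, CDK2, and CDK6, all lower, and 4616 genes were called in all. Against the J libraries E2F1 alone was called, with 3407 genes in all, and against all 6 primed libraries 3486 genes were called. E-NHSM was also the protocol with the smallest share of all genes called.

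The protocols were then compared directly in 1 fit of their 21 libraries, which uses no primed library. All 9 members differed among the 7 protocols (adjusted p from 1.4e-21 for CCND2 to 1.4e-05 for CDK4), where 90.9% of 14699 genes did. Of 189 contrasts, 9 members in 21 pairs of protocols, 136 were called, or 72%. For single pairs, from 26.8% to 69% of all genes were called. A share of all genes pooled over the pairs was not computed, so the 72% and the counts per gene have none beside them. CCND1, CCNE1, and E2F1 each differed in 18 of 21 pairs, and CDK4 in 10.

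E-NHSM differed from every other protocol in 7 or 8 members. It differed in 8 of 9 members from NHSM-v (69% of all genes called), 4i/L/b (65%), LCDM (EPS) (66%), and TL-CDK8/19i (57.8%), and in 7 from TL2i (60.6%) and t2iLGöY (67.3%). NHSM-v differed from TL-CDK8/19i in all 9 members (60.4% of genes), from TL2i in 7 (51.9%), and in 6 each from 4i/L/b (39.9%), t2iLGöY (49.6%), and LCDM (EPS) (54.8%).

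The smallest number was between 4i/L/b and TL2i, with 3 of 9 members (26.8% of genes called). LCDM (EPS) differed from 4i/L/b in 4 (48%), from TL-CDK8/19i in 5 (63.7%), and in 6 each from TL2i (50%) and t2iLGöY (35.8%). Of the remaining pairs, t2iLGöY differed in 6 members from 4i/L/b (44.1%) and from TL-CDK8/19i (62.9%) and in 7 from TL2i (50.6%), and 4i/L/b in 6 from TL-CDK8/19i (52.6%).

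TL2i and TL-CDK8/19i share tamoxifen and active STAT3-ERT2 and differ in their inhibitors. Between them 7 of 9 members were called, where 53% of all genes were. CCND1 (336 against 265 CPM, log2 difference 0.37 ± 0.09, adjusted p = 0.00098), CCNE2 (0.93 ± 0.29, adjusted p = 0.0093), and E2F1 (47.7 against 27.6 CPM, 0.82 ± 0.15, adjusted p = 3.2e-05) were higher in TL2i. CDK4 (159 against 255 CPM, -0.65 ± 0.11, adjusted p = 1.9e-05), CCNE1 (43.6 against 65.0 CPM, -0.54 ± 0.14, adjusted p = 0.0026), CCND3 (-0.73 ± 0.24, adjusted p = 0.013), and CDK2 (-0.29 ± 0.12, adjusted p = 0.048) were higher in TL-CDK8/19i. CCND2 (-0.09 ± 0.09) and CDK6 (-0.49 ± 0.28) did not pass the test.

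Other genes of the pathway were read from lists by role. CDK inhibitors bind CDKs or cyclin-CDK complexes and hold cells in G1. Of 6 tested in t2iLGöY 4 rose, of 6 in LCDM (EPS) 3 rose, of 6 each in TL2i, NHSM-v, and 4i/L/b 2 rose, and of 5 in E-NHSM 1 rose. In TL-CDK8/19i 3 of 5 rose and 1 fell. Of all genes, from 22.3% to 28.2% rose in the protocols other than E-NHSM and 11.1% in E-NHSM, so that 2 of 6 is near the share of all genes.

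CDKN1B, which encodes p27Kip1, the inhibitor of cyclin E-CDK2, was at 19.8 ± 8.38 CPM in primed cells (n = 6) and rose in 5 protocols. It was at 98.2 ± 5.76 CPM in LCDM (EPS) (2.30 ± 0.28, adjusted p = 9.5e-06), 64.6 ± 10.5 in t2iLGöY (1.72 ± 0.30, adjusted p = 0.00019), and 43.7 ± 5.51 in E-NHSM (1.13 ± 0.29, adjusted p = 0.0067). The rises in TL2i (0.87 ± 0.31, adjusted p = 0.029) and TL-CDK8/19i (0.80 ± 0.31, adjusted p = 0.047) were smaller, and NHSM-v (0.37 ± 0.33) and 4i/L/b (0.55 ± 0.32) did not pass. CDKN1A, which encodes p21, and CDKN1C, which encodes p57, were chosen after their values were seen. CDKN1A rose from 6.90 ± 4.51 CPM in primed cells to 114 ± 26.7 in TL-CDK8/19i, 70.6 ± 2.53 in 4i/L/b, 56.5 ± 2.46 in NHSM-v, and 32.4 ± 3.86 in TL2i, and was at 6.83 ± 1.61 in t2iLGöY and 6.98 ± 1.16 in LCDM (EPS). CDKN1C instead rose in these last protocols (2.03 ± 0.34 and 2.75 ± 0.33) and fell in TL-CDK8/19i (-1.73 ± 0.47).

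The retinoblastoma family holds E2F factors inactive. Of its 3 members, 2 rose in LCDM (EPS), t2iLGöY, TL2i, 4i/L/b, and NHSM-v, and 1 in TL-CDK8/19i, beside the same shares of all genes. These were RBL1 and RBL2. RB1, which encodes the retinoblastoma protein itself, was called in 0 protocols (log2 fold changes from -0.47 ± 0.28 in TL2i to 0.40 ± 0.26 in TL-CDK8/19i). RBL2, which encodes p130, rose from 27 ± 4.78 CPM in primed cells to 74.4 ± 1.22 in LCDM (EPS) (1.47 ± 0.16, adjusted p = 2.2e-06) and 70.1 ± 2.36 in NHSM-v (1.35 ± 0.16, adjusted p = 4.4e-06), and in E-NHSM it was at 35.2 ± 6.75 (0.38 ± 0.19, adjusted p = 0.17).

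Of the 9 other E2F and DP factors, 5 fell in E-NHSM and 5 rose in LCDM (EPS), and 2 to 4 were called in each remaining protocol. The shares of all genes were 15.1% falling in E-NHSM, 28.2% rising in LCDM (EPS), and from 46.1% to 58.6% called in the remaining protocols, so that 2 to 4 of 9 is at or below the share of all genes. E2F3, an activator like E2F1, fell in 6 protocols, with its lowest level of 57.6 ± 2.90 CPM in TL-CDK8/19i against 114 ± 15.1 in primed cells (-1.04 ± 0.13, adjusted p = 1.4e-05). E2F2, another activator, rose in LCDM (EPS) (2.54 ± 0.38, adjusted p = 6e-05), NHSM-v (1.32 ± 0.44, adjusted p = 0.018), and TL2i (1.12 ± 0.44, adjusted p = 0.047). E2F6, a repressor, rose in LCDM (EPS) (0.81 ± 0.16), 4i/L/b (0.69 ± 0.16), and TL2i (0.44 ± 0.17).

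Of 5 genes of the CDK-activating kinase and of the kinases that inhibit CDKs, 5 fell in TL-CDK8/19i, 4 in LCDM (EPS), t2iLGöY, TL2i, and NHSM-v, 3 in 4i/L/b, and 2 in E-NHSM, where from 15.1% to 30.6% of all genes fell. The list joins activators (CDK7, CCNH, and MNAT1) and inhibitors (WEE1 and PKMYT1), so its counts give no direction of CDK activity. CDK7, MNAT1, and PKMYT1 fell in 6 protocols each, and CCNH rose in 2 and fell in 2. WEE1, which inhibits CDK1 and CDK2, was at 477 ± 25.6 CPM in primed cells and fell to 77.8 ± 14.8 in t2iLGöY (-2.59 ± 0.12, adjusted p = 1.4e-10), 95.4 ± 3.46 in LCDM (EPS), 156 ± 6.66 in TL2i, and 166 ± 2.27 in E-NHSM. It fell less in NHSM-v (-0.50 ± 0.07) and TL-CDK8/19i (-0.40 ± 0.08), and rose in 4i/L/b (638 ± 25.5 CPM, 0.38 ± 0.07, adjusted p = 0.00032). Of 8 genes of the ubiquitin ligases that degrade G1-S regulators, at most 3 rose and at most 2 fell in any protocol, where from 11.1% to 28.2% of all genes rose and from 15.1% to 30.6% fell. CUL1, a scaffold of these ligases, fell in all 7 protocols (log2 fold changes from -0.53 to -0.34), and CKS1B, which aids the degradation of p27Kip1, fell in 5, to 21.5 ± 1.71 CPM in LCDM (EPS) from 53.7 ± 7.87 (-1.32 ± 0.16, adjusted p = 8.6e-06).

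Most E2F target genes of replication fell in every protocol. Of 18, 17 fell in t2iLGöY, 15 in NHSM-v and 4i/L/b, 13 in TL2i, and 12 in E-NHSM, LCDM (EPS), and TL-CDK8/19i, where from 15.1% to 30.6% of all genes fell. Their median log2 fold change was -1.25 in t2iLGöY, -1.12 in NHSM-v, -1.04 in 4i/L/b, -0.76 in LCDM (EPS), -0.62 in TL2i, -0.42 in TL-CDK8/19i, and -0.35 in E-NHSM, whereas that of all genes lay between -0.02 and 0.07. The study itself reported that more 4i/L/b, TL2i, and t2iLGöY cells than primed cells took up EdU, a label of replicating DNA. Uptake in these cells fell after dissociation. How the transcript levels relate to EdU uptake was not tested.

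MCM4, a subunit of the replicative helicase, was at 500 ± 37.6 CPM in primed cells and fell in all 7 protocols, to between 181 ± 9.96 in t2iLGöY (-1.44 ± 0.09, adjusted p = 3.3e-09) and 351 ± 8.23 in E-NHSM (-0.52 ± 0.07, adjusted p = 4.5e-05). MCM3, another subunit, fell in all 7, with log2 fold changes from -1.43 ± 0.11 in t2iLGöY to -0.29 ± 0.09 in E-NHSM. MYBL2, a transcription factor of proliferating cells, also fell in all 7, from -1.79 ± 0.11 in t2iLGöY to -0.52 ± 0.08 in TL-CDK8/19i. The sum of pluripotency markers was lowest in t2iLGöY too (197 to 214 CPM), and its part in these falls was not tested.

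Of the 8 cyclins and CDKs of S, G2, and M phase, 6 fell in NHSM-v and 4i/L/b, 5 in t2iLGöY, 4 in TL-CDK8/19i, 3 in E-NHSM and LCDM (EPS), and 2 in TL2i. Of all genes, 30.6% fell in NHSM-v, 29% in 4i/L/b, 27.2% in t2iLGöY, 23.8% in TL-CDK8/19i, 15.1% in E-NHSM, 28.9% in LCDM (EPS), and 25.2% in TL2i, so that 3 of 8 in LCDM (EPS) and 2 of 8 in TL2i are near the share of all genes. CCNA2, which encodes cyclin A2, fell in all 7 protocols, from 207 ± 12.9 CPM in primed cells to 109 ± 12.0 in NHSM-v (-0.95 ± 0.10, adjusted p = 7.6e-07) and 170 ± 3.09 in LCDM (EPS) (-0.28 ± 0.08, adjusted p = 0.008). CDC25B, a phosphatase that activates CDKs, rose in 5 protocols, from 38.8 ± 6.12 CPM in primed cells to 212 ± 10.7 in LCDM (EPS) (2.45 ± 0.13, adjusted p = 1.2e-09) and 138 ± 4.35 in t2iLGöY (1.86 ± 0.14, adjusted p = 2.7e-08).

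Genes that read out the mitogen and Wnt input to D-type cyclins moved far and in both directions. Of 7, 4 rose and 3 fell in TL-CDK8/19i, 3 rose and 4 fell in 4i/L/b, and 3 rose and 3 fell in TL2i. In NHSM-v 2 rose and 4 fell, and in t2iLGöY and LCDM (EPS) 2 rose and 5 fell. Of 6 tested in E-NHSM, 1 rose and 5 fell. From 11.1% to 28.2% of all genes rose and from 15.1% to 30.6% fell. EGR1, an immediate target of MEK and ERK signals, fell in all 7 protocols, from 1450 ± 264 CPM in primed cells to 2.73 ± 0.483 in t2iLGöY (-9.02 ± 0.22, adjusted p = 3.4e-13) and 436 ± 31.5 in 4i/L/b (-1.78 ± 0.14, adjusted p = 1.7e-07). MYC fell in all 7 as well, from 357 ± 21.4 CPM to 4.76 ± 4.29 in LCDM (EPS) (-6.25 ± 0.39, adjusted p = 9.7e-09) and 164 ± 21.3 in TL-CDK8/19i. AXIN2, a direct target of β-catenin, rose in all 7, from 7.04 ± 2.04 CPM to 385 ± 17 in TL2i (5.76 ± 0.16, adjusted p = 9.5e-12) and 22.8 ± 3.46 in E-NHSM (1.69 ± 0.28, adjusted p = 0.00015).

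LEF1, a transcription factor of the Wnt pathway, was at 0.148 ± 0.362 CPM in primed cells and at 19.2 ± 1.11 to 152 ± 16.5 CPM in the 6 protocols other than E-NHSM (0.0185 ± 0.0321 CPM). Beside these, CCND1 rose in 5 protocols and fell in E-NHSM, and EGR1 fell and AXIN2 rose in all of them. The rest of this list was named after its values were seen. FOSL1 rose in 4i/L/b (2.39 ± 0.36, adjusted p = 6.3e-05) and TL-CDK8/19i (2.35 ± 0.35, adjusted p = 7.5e-05) and fell in 3 protocols. MYCN rose in TL2i (0.68 ± 0.12) and TL-CDK8/19i (0.81 ± 0.12) and fell in 5 protocols. DUSP6 fell in all 7.

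**Figure D5:**
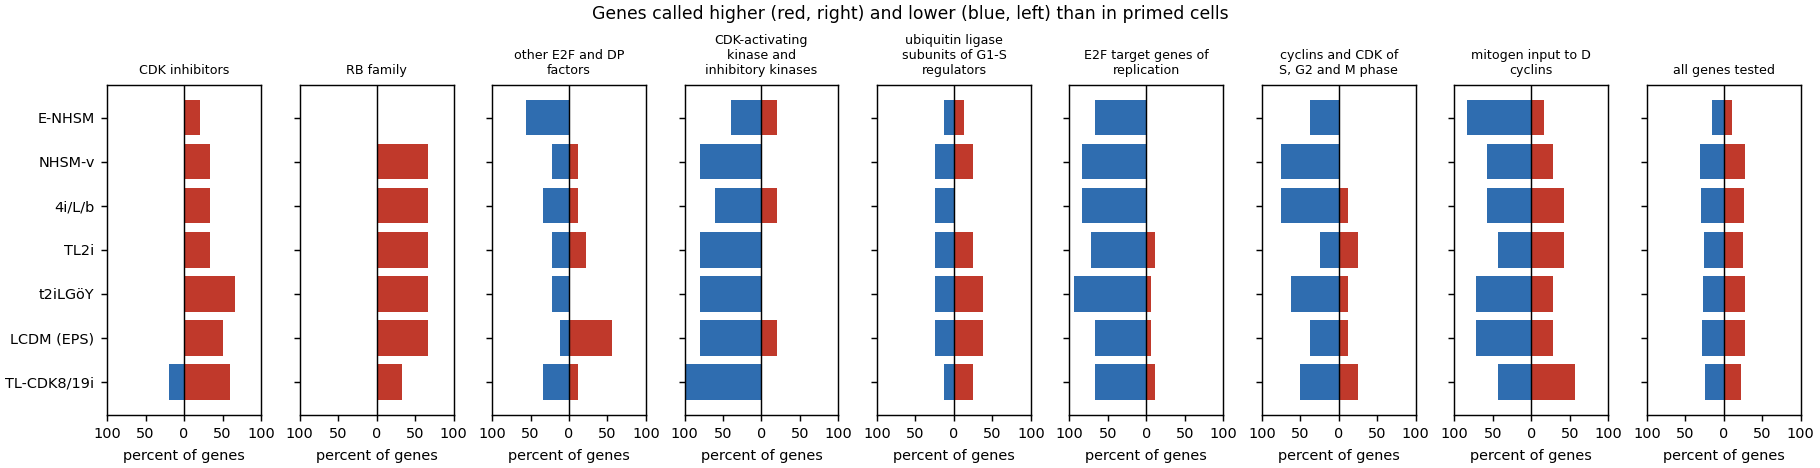
Percent of the tested genes of each pathway list called higher (right) and lower (left) than in primed cells in each protocol, with the same for all genes in the last panel. The replication genes lie to the left in every protocol, with 12 to 17 of 18 lower, and the lists of CDK inhibitors and of the retinoblastoma family lie mostly to the right.

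For each member, the genes whose level was most like it were found by Pearson's r of log2 CPM over the 27 libraries, among 10027 genes. They share libraries and groups with the member, and r is given as a description. CCNE1 was closest to USP44 (r = 0.972) and POLR3G (0.971), and CCND1 to REV3L (0.953) and TRIL (0.949). CCND2 was closest to SRXN1 (0.936) and SLC7A11 (0.934), CDK6 to DPYSL3 (0.913) and TRIO (0.909), and CCNE2 to NPAS3 (0.908) and ERBB2IP (0.907). The values were lower for CDK2, with SEC14L1 (0.895) and DHX40 (0.878), for CCND3, with F2R (0.853) and SCRN1 (0.843), for E2F1, with KLC2 (0.839) and RAB24 (0.837), and for CDK4, with APPL2 (0.837) and VAPB (0.807).

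Among the members themselves, CCND1 and CDK6 were most alike (r = 0.787), CCND1 and CCNE1 had the most negative value (-0.785), and CCNE1 and CCNE2 had -0.713. CCND1 and CCND2 had a value of 0.0101 over the same 27 libraries.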

How the data were processed

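The mRNA of 27 libraries was sequenced by the authors with a directional kit as single reads of 75 bases, and the deposited values are raw counts per gene symbol, with 1 column per library and no pooling. The submitters' processing notes name bcl2fastq, cutadapt, HISAT2, and HTSeq without versions. The genome build, the annotation, and the handling of reads shared between genes, of antisense reads, and of mouse reads from feeder cells are not given in the sources used here, so their effect on the counts could not be examined. Groups were taken from the labels. The columns of primed cells show their group, a letter, and a number that occurs under both letters, and match no single sample of the labels. The labels disagree on the set of 2 of these libraries, and 0 columns were left unassigned.

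TMM factors, CPM, and the quasi-likelihood test were computed with edgeR 4.0.16 (limma 3.58.1, R 4.3.3). Each protocol was fitted with the 6 primed libraries on genes kept by filterByExpr, with Benjamini-Hochberg adjustment over all genes tested and a threshold of 0.05, and the 7 protocols were also fitted together. Standard errors follow from each log2 fold change divided by the square root of F. Ratios used counts with an offset of 0.5, and likeness used log2 of CPM with an offset of 0.5, among genes whose mean log2 CPM reached 3. The script was tested on simulated data. Replicates differed by more than sampling noise in all pairs, so that none was counted as a duplicate. Replicate numbers did not pair the libraries of different protocols.

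The members and lists were chosen with earlier results of these data known. All members are named. Of each other list, the genes called in most protocols with the largest change (up to 3) are named, with those that moved against their list in every call, CDKN1B in any case, and the 2 genes most like each member. CDKN1A, CDKN1C, RB1, CDK7, CCNH, MNAT1, PKMYT1, FOSL1, MYCN, and DUSP6 were named after their values were seen. Alternatives were DESeq2 1.42.0, upper-quartile scaling, no count filter, 10 or more counts throughout, an added bound of 1 on the size of log2 fold changes, a single fit of all 8 groups, the primed letters apart, each library left out, and a replicate block.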

Additional observations from a re-analysis of the deposited data

Results flagged for a closer look

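In 6 members the effects of 2 protocols against primed cells had opposite signs, each past the threshold. How many of all genes had such opposite calls was not counted, but 90.9% of 14699 genes differed among the 7 protocols. For each of the 6, the protocols with the largest and the smallest log2 fold change were contrasted in the fit of the 21 protocol libraries by edgeR's quasi-likelihood test. The pairs were thus picked as extremes on the same libraries. That all the contrasts passed is therefore no further evidence. CCND1 was higher in 4i/L/b than in E-NHSM by 2.33 on the log2 scale (631 against 127 CPM, adjusted p = 9.2e-18). CCND2 was higher in TL-CDK8/19i than in LCDM (EPS) by 2.58 (878 against 146 CPM, adjusted p = 1e-18). CCNE2 was higher in LCDM (EPS) than in E-NHSM by 3.32 (41.7 against 4.08 CPM, adjusted p = 1.3e-10). CDK2 was higher in t2iLGöY than in E-NHSM by 1.75 (246 against 72.8 CPM, adjusted p = 2.1e-12). CDK6 was higher in NHSM-v than in E-NHSM by 4.54 (50.2 against 2.22 CPM, adjusted p = 2.7e-12). E2F1 was higher in LCDM (EPS) than in TL-CDK8/19i by 1.42 (73.4 against 27.6 CPM, adjusted p = 2.7e-09). In each of these contrasts all 3 libraries of 1 protocol lay above all 3 of the other, which the choice of extremes favours. Several of the effects against primed cells rested on part of the libraries. The falls of CCND1, CCNE2, CDK2, and CDK6 in E-NHSM and the rise of E2F1 in LCDM (EPS) did not pass against the J primed libraries alone (adjusted p of 0.085, 0.061, 0.08, 0.13, and 0.13), and all but that of CCND1 were also lost with at least 1 single library left out. The direct contrasts of protocols use no primed library, but their pairs were chosen by the fold changes against primed cells.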

How the results depend on the processing

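Of 1071 fold changes of members recomputed under the alternatives, 979 kept their side of the threshold, 54 lost a call, 38 gained one, and 0 of the calls reversed. Fold changes without a call could change sign within the 979. CCND3 in E-NHSM, for example, was -0.43 against all primed libraries and 0.15 against J alone. Group means in CPM moved by less than 1 SD in 61 of 72 cases with raw totals and in 67 of 72 with upper-quartile scaling. For E-NHSM, 3 members were called with upper-quartile scaling and 1 against letter J alone, and from 1 to 5 with a library left out (1 to 2 without an E-NHSM library). All genes called were then 3592, 3407, and from 2482 to 3987 (2482 to 2518 without an E-NHSM library), against 3486 in the main fit. When log2 fold changes also had to reach 1 in size, members called were 2 in E-NHSM, 6 in NHSM-v, 3 in 4i/L/b, 1 in TL2i, 4 in t2iLGöY, 4 in LCDM (EPS), and 1 in TL-CDK8/19i. All genes called were then 1209 in E-NHSM, 4560 in NHSM-v, 3928 in 4i/L/b, 3336 in TL2i, 4298 in t2iLGöY, 4354 in LCDM (EPS), and 2584 in TL-CDK8/19i. With all 8 groups in 1 fit, 5255 genes were called in E-NHSM. No paired analysis was possible against primed cells because each primed column matches the group and no single sample of the labels, and its numbers occur under both letters. Among protocols, a replicate block gave 134 called contrasts of members in place of 136. Samples of equal number did not deviate together (r from -0.248 to 0.212 over 63 pairs, 2 of them over 0.1), and 6 of 21 libraries correlated best with their own number. CCNE2 and CDK6 in E-NHSM rest on low counts, which limits their precision.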
